A study of Mus musculus with 8 samples.

Results

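The 32 genes described here encode chaperones, folding enzymes and quality-control proteins of the endoplasmic reticulum, and sensors of the unfolded protein response. They were chosen by gene symbol, with earlier results of these data known. A transcript cluster with exactly 1 symbol was found for all 32 (Ero1l and Ero1lb under their present symbols Ero1a and Ero1b), among 19938 genes measured. Gene expression was measured on Affymetrix whole-transcript arrays in gastrocnemius, a mixed calf muscle, from 6-month-old males fed chow, with a fast of 5 h before sampling. In the 4 knockouts (Gcn5skm-/-, HSAcre Tg/0 with Gcn5 L2/L2), Cre driven in muscle fibres by human skeletal actin regulatory sequence recombined the floxed gene for the acetyltransferase Gcn5. The 4 wild types (Gcn5skm+/+, HSAcre 0/0 with Gcn5 L2/L2) carried the same floxed alleles without Cre, so effects of Cre and of the deletion cannot be told apart. Each animal gave 1 array. Values are log2 expression made with RMA, and a difference is always knockout minus wild type on that scale.

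Secreted and membrane proteins fold in the lumen of the reticulum with the help of Hsp70 and Hsp90 chaperones, lectins and disulfide isomerases, and proteins that fail to fold are returned to the cytosol and degraded. When unfolded proteins accumulate, the membrane sensors IRE1, ATF6 and PERK act. IRE1 splices the Xbp1 transcript to make the transcription factor XBP1, ATF6 is cut to release a transcription factor that induces chaperones, and PERK slows translation and favours that of ATF4. In muscle fibres the reticulum is mostly sarcoplasmic reticulum, the calcium store, and the other cells of the tissue hold reticulum of their own. In such bulk samples a lower transcript level per cell and a smaller share of a cell type cannot be told apart.

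Kat2a, which encodes Gcn5, measured 6.50, 6.46, 6.45 and 6.43 in wild types 1 to 4 and 5.81, 5.84, 5.79 and 5.73 in knockouts 1 to 4. Every knockout lay below every wild type (difference -0.66, SE 0.08, limma adjusted p = 0.0319), but leaving out wild type 3, wild type 4 or a single knockout ended the call (limma adjusted p from 0.0619 to 0.137). The files do not place this cluster's probes relative to the floxed segment, so the difference does not measure how complete the deletion was. Markers of skeletal muscle fibres were present on all arrays, with means over 13 genes of 11.82 to 11.94 in wild type and 11.64 to 11.96 in knockout, where Des differed by -0.09 and Myh2 by -0.49 (0.01 without knockout 4), on a scale that ran from 0.754 to 13.2. Over the whole array 3 of 19938 genes passed a 5% false discovery rate. Wild type 2 stood apart most: its mean correlation to the rest (0.987) was the lowest, and it had the highest score on the first principal component (32.2), and wild type 4 (20.9) and knockout 4 (-20.0) lay at opposite ends of the second. Mean correlations of wild type 4 and knockout 4 were the next lowest (0.989 and 0.990).

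Of the 32 reticulum genes, 27 measured lower and 5 higher in knockout muscle, and the median difference was -0.09. Over all genes 54.7% measured lower and the median was -0.01. The differences were small: they ran from -0.25 for Hspa5 to 0.09 for Edem1 (SE from 0.0793 to 0.139). In limma with Benjamini-Hochberg adjustment over all genes, 0 of the 32 passed a 5% false discovery rate, where 0.015% of genes passed, and 0 passed at 10%, where 0.0802% of genes did. The smallest adjusted p of a member was 0.859. At an unadjusted p under 0.05 there was 1 member, Hspa5, which was lower, and 0 were higher. Of all genes 5.73% had such a p, 3.39% lower and 2.34% higher. The 95% intervals of all 32 differences lay between -0.46 and 0.33, which is 0.727 to 1.25 times the wild-type level, so that larger changes of any of these genes lay outside its interval.

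**Figure D1:**
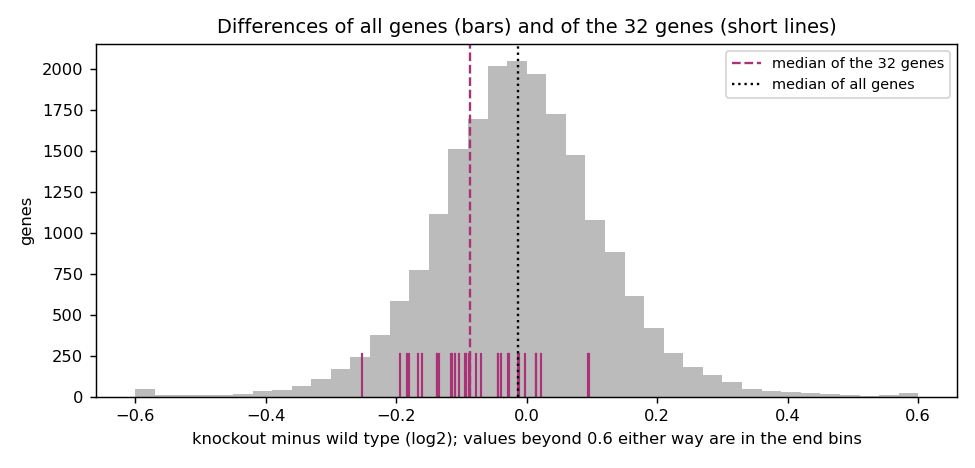
Histogram of the knockout minus wild type difference (log2) of all 19938 genes, with a short line for each of the 32 reticulum genes; the dashed line is the median of the 32 genes (-0.09) and the dotted line that of all genes (-0.01). The 32 genes lie within the body of the distribution, between -0.25 and 0.09, and mostly left of the overall median.

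The chaperones of the BiP and GRP94 system had the lowest median difference of the 5 role groups, -0.13. All 10 measured lower in knockout, and 0 passed the threshold. Hspa5 had the lowest difference of the 32 genes, followed by the isomerase gene Pdia4 (-0.19), Dnajc3 (-0.18) and the degradation gene Selenos (-0.18). Hspa5 encodes BiP, the Hsp70 protein of the reticulum that also keeps the stress sensors inactive. It measured 8.98, 9.04, 9.07 and 9.35 in wild types 1 to 4 and 8.84, 8.85, 8.92 and 8.83 in knockouts 1 to 4. Wild type 4 was highest, and the lowest wild type lay above the highest knockout by 0.06. The means were 9.11 ± 0.16 and 8.86 ± 0.04 (SD, n = 4 each), and the difference of -0.25 (SE 0.10, 95% interval -0.46 to -0.05) corresponds to 0.840 of the wild-type level. It did not pass over all genes (limma unadjusted p = 0.021, adjusted p = 0.859). An exact two-sided permutation test gave p = 0.0286, the smallest that 4 against 4 arrays allow, and 0.790 adjusted over all genes. Without wild type 4 the difference was -0.17 (limma adjusted p = 0.997), and the adjusted p over all alternatives ran from 0.604 to 0.997.

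Hsp90b1 encodes GRP94, the Hsp90 protein of the reticulum. It measured 8.52, 8.67, 8.69 and 8.56 in the wild types and 8.38, 8.45, 8.46 and 8.51 in the knockouts (difference -0.16, SE 0.08, limma adjusted p = 0.869). The groups did not overlap, but knockout 4 lay only 0.0054 below wild type 1. Among the disulfide isomerases, Pdia4 (ERp72) measured 6.30, 6.68, 6.49 and 6.39 in the wild types and 6.30, 6.21, 6.27 and 6.30 in the knockouts (difference -0.19, SE 0.10, limma adjusted p = 0.869). Here the gap between the lowest wild type and the highest knockout was 0.00033, which is far below the spread within either group (SD 0.16 and 0.04). Hspa5, Hsp90b1 and Pdia4 were the 3 of 32 genes with every knockout below every wild type, where 2.14% of all genes showed that, and 0 of 32 showed the reverse, which 1.48% of genes did. These separations depended on the scaling: after quantile or cyclic loess normalization Hspa5 overlapped, and after median centring Hsp90b1 and Pdia4 did. Pdia4 also overlapped when its 2 clusters were averaged, of which the dimmer (mean 2.82) differed by -0.16. Without wild type 2, where Pdia4 stood highest, its difference was -0.12.

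**Figure D2:**
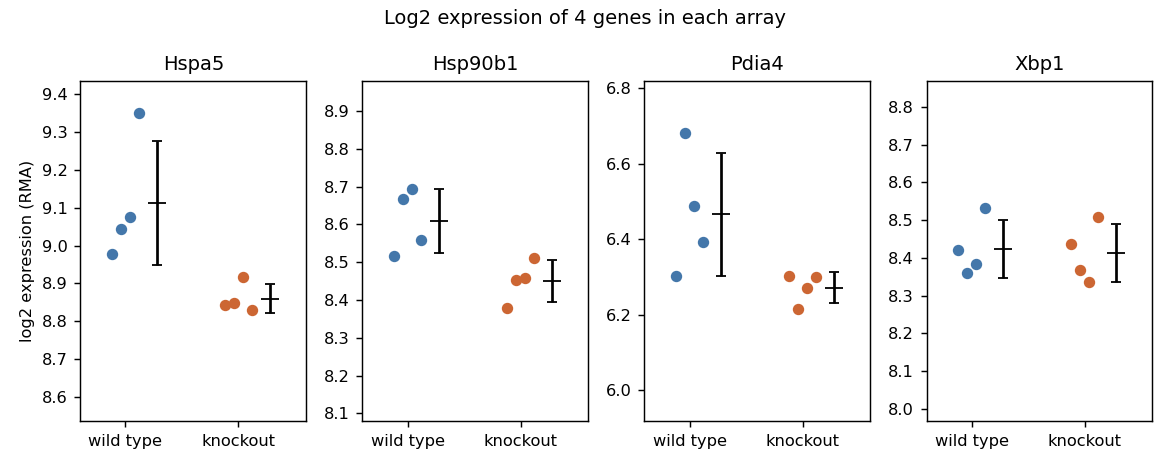
Log2 expression (vertical axes, RMA) of Hspa5, Hsp90b1, Pdia4 and Xbp1 in the 4 wild-type (blue) and 4 knockout (orange) arrays, 1 point per animal in the order of replicates 1 to 4; bars give the mean ± SD. The groups are apart in the first 3 panels, by as little as 0.00033 for Pdia4, and mixed for Xbp1.

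The promoters of these 3 genes are shown because ATF6 and the factor NF-Y are known to induce such chaperone genes through paired CCAAT and CCACG boxes. The sequences are the 250 bases before the annotated start in RefSeq (GRCm38.p6), written 5′ to 3′ on the gene's strand, with each CCAAT or CCACG box (on either strand, so also ATTGG and CGTGG) in capitals. That of Hspa5 lies at chr2:34771840-34772089 (plus strand), that of Hsp90b1 at chr10:86705445-86705694 (minus strand) and that of Pdia4 at chr6:47813513-47813762 (minus strand).
Hspa5: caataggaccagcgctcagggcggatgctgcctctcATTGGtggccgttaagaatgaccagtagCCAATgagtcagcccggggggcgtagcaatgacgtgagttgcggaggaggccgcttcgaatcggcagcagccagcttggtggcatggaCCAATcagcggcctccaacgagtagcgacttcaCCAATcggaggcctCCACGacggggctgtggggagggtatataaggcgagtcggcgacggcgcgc
Hsp90b1: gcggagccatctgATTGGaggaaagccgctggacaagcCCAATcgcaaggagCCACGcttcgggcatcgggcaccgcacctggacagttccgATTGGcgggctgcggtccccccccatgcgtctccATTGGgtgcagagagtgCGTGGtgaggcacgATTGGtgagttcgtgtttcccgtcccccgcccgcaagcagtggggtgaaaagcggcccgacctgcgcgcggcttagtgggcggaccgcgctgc
Pdia4: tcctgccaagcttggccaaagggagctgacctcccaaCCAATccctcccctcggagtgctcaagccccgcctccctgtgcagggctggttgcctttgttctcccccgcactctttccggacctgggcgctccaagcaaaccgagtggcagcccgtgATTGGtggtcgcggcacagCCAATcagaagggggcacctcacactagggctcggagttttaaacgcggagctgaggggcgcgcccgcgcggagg
The Hspa5 window held 4 CCAAT boxes and 1 CCACG box, that of Hsp90b1 held 5 and 2, and that of Pdia4 held 3 and 0.

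The endoplasmic reticulum stress element joins both boxes at a fixed distance (CCAAT, 9 free bases, CCACG, searched on both strands from 250 bases before to 50 after the start). Of the 28 members with a promoter in the RefSeq tables, 10 held it exactly (35.7%), against 0.119% of 32851 windows of the same length. Since the members include the textbook genes of this element, that share describes the set and says nothing of the knockout. The related element II (ATTGG, 1 free base, CCACG) stood in 2 members and in 0.0365% of windows. The elements follow with the fixed bases in capitals, from the member with the lowest difference to that with the highest. Each is written so that it ends in CCACG. Those of Ero1b, Creld2, Calr and Derl3 and the nearer one of Hsp90b1 are therefore on the strand opposite to the gene.
Hspa5: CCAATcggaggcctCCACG
Dnajc3: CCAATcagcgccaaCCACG
Hsp90b1 (nearer the start): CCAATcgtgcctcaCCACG
Hsp90b1 (farther from the start): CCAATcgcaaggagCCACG
Ero1b: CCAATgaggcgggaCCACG
Dnajb11 (element II): ATTGGcCCACG
Pdia6: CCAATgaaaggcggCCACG
Canx: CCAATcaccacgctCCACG
Herpud1 (element II): ATTGGgCCACG
Creld2: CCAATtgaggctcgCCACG
Calr: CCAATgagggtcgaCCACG
Syvn1: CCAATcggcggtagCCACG
Derl3: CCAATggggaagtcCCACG
In Hspa5 the element lies at chr2:34772025-34772043, 65 to 47 bases before the start. The 12 members with either element had a median difference of -0.07 and 11 measured lower. The 16 members with a promoter in the tables and neither element had a median of -0.09, and 12 measured lower. Over all genes tested, 21 carried the first element, of which 15 measured lower (median -0.07) and 1 had an unadjusted p under 0.05. These 21 include the 10 members, of which 9 measured lower, and the 1 gene is Hspa5, so the count is not independent of the members. The XBP1 element TGACGTGG, the amino acid response element TGATGNAAT and the heat-shock element (GAA, TTC and GAA, each pair 2 free bases apart) were found in 0 of the 28 members and in 0.676%, 0.965% and 0.603% of all windows.

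The partners of BiP followed with smaller or less even differences. Dnajc3 (P58IPK), a J-protein that delivers unfolded clients to BiP, measured 6.41, 6.56, 6.28 and 6.56 in the wild types and 6.28, 6.40, 6.16 and 6.23 in the knockouts. Its groups overlapped at wild type 3 (difference -0.18, SE 0.10, limma adjusted p = 0.869). Dnajb9 (ERdj4), a J-protein that helps BiP repress IRE1, measured 8.14, 8.51, 8.12 and 8.27 in the wild types and 8.11, 8.03, 8.13 and 8.11 in the knockouts. The knockouts were close together and lay near wild types 1 and 3, while wild type 2 was higher (difference -0.17, SE 0.10, limma adjusted p = 0.876). The co-chaperone genes Sdf2l1, Dnajb11 and Hyou1, the last an Hsp110 protein that exchanges the nucleotide of BiP, differed by -0.14, -0.12 and -0.11. Manf, a secreted BiP-binding protein, differed by -0.09, the reductase gene Dnajc10 by -0.04 and Creld2 by -0.03. Without wild type 3 the difference of Manf was -0.01, and without wild type 2 it was -0.18. The sign of Dnajc10 turned without wild type 2 (0.05) and that of Creld2 without wild type 1 (0.03).

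Wild type 2 split the group. It held the highest value of all 8 arrays for 10 of the 32 genes, among them Dnajb9, Dnajc10, Hyou1, Pdia4, Selenos, Sel1l and the derlins Derl1 and Derl2. It also held the lowest value for 5 genes: Sdf2l1, Manf, Creld2, Edem1 and Derl3. Manf measured 5.16 there against 5.43, 5.67 and 5.43 in the other wild types, and Sdf2l1 measured 5.69 against 5.98, 6.11 and 6.04. Over all genes wild type 2 was highest for 24.6% and lowest for 21.1%, so it stood at the extremes across the array and not in these genes alone. Knockout 3 was lowest for 9 of the 32 genes (12.7% of all genes) and wild type 4 highest for 9 (17.4%). Wild-type SD exceeded knockout SD in 21 of the 32 genes, or 65.6%, near the 67.6% of all genes.

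**Figure D3:**
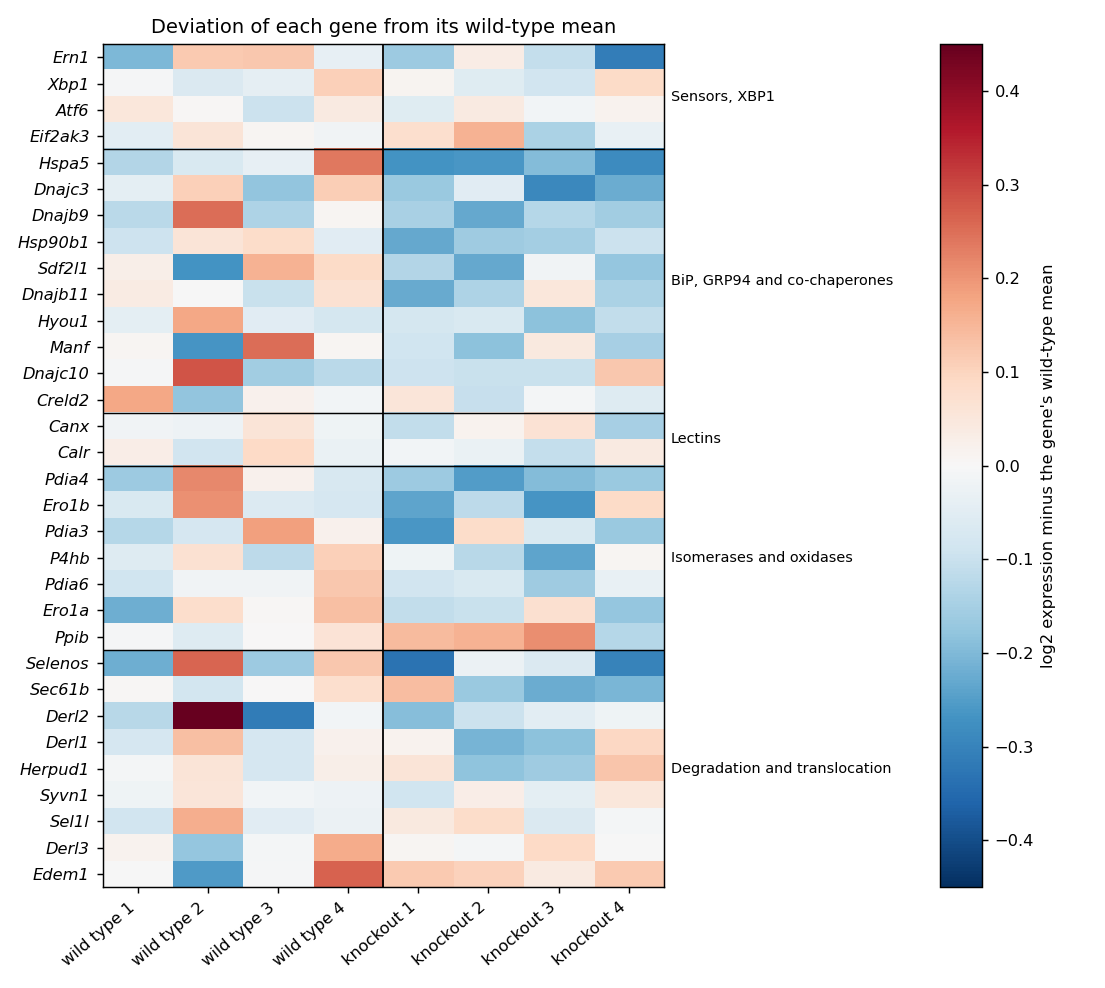
Log2 expression of each of the 32 genes (rows, grouped by role) minus that gene's wild-type mean, in the 4 wild-type and 4 knockout arrays (columns); blue is below and red above the wild-type mean. The rows of BiP, GRP94 and their partners are mostly blue in the knockouts, while wild type 2 holds both strong red (Derl2, at 6.22) and strong blue rows (Manf, at 5.16).

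The lectin chaperones calnexin (Canx) and calreticulin (Calr), which hold glycoproteins until they are folded, measured 9.33 ± 0.04 and 8.80 ± 0.08 in wild type and 9.29 ± 0.10 and 8.78 ± 0.06 in knockout (SD, n = 4 each). Their differences of -0.04 and -0.03 were smaller than the SE of 0.08 (limma adjusted p = 0.954 and 0.977), and that of Calr turned to 0.01 after quantile normalization. Among the isomerases and oxidases 6 of 7 measured lower, with a median of -0.09 and 0 past the threshold. Pdia3 (ERp57), which works with both lectins, differed by -0.10, P4hb (protein disulfide isomerase itself) by -0.09 and Pdia6 by -0.09. The oxidase genes Ero1a and Ero1b, whose proteins re-oxidise the isomerases, differed by -0.08 and -0.13. Ppib, which encodes the proline isomerase cyclophilin B, measured 7.91, 7.86, 7.92 and 7.98 in the wild types and 8.06, 8.08, 8.13 and 7.79 in the knockouts. Knockouts 1 to 3 lay above every wild type and knockout 4 below every one (difference 0.09, SE 0.09, limma adjusted p = 0.924).

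Genes of degradation and translocation showed the least common direction, with 6 of 9 lower and a median of -0.04. Selenos, a selenoprotein of the retrotranslocation complex, measured 5.54, 6.02, 5.60 and 5.88 in the wild types and 5.43, 5.73, 5.69 and 5.46 in the knockouts (difference -0.18, SE 0.12, limma adjusted p = 0.876). Its groups overlapped, with wild types 2 and 4 high. Sec61b, a subunit of the translocon, differed by -0.12, and by -0.06 and -0.08 in 2 dimmer clusters of that symbol. Whether the cluster used reads the parent gene or a processed copy was not settled by the annotation. Derl1 and Derl2, membrane proteins that lead misfolded proteins out, differed by -0.07 and -0.09, and Derl2 turned to 0.06 without wild type 2, where it measured 6.22 against 5.46 to 5.76 in the other wild types. Herpud1, a scaffold of the degradation complex and a common stress reporter, measured 9.67, 9.74, 9.60 and 9.71 in the wild types and 9.74, 9.50, 9.52 and 9.80 in the knockouts. Knockouts 1 and 4 were as high as the wild types and knockouts 2 and 3 lower (difference -0.04, SE 0.09, limma adjusted p = 0.968). The ubiquitin ligase gene Syvn1 (HRD1) and its partner Sel1l differed by -0.01 and 0.01, and each changed sign when single arrays were left out. Edem1, a lectin that marks glycoproteins for degradation, measured 6.03, 5.78, 6.03 and 6.30 in the wild types and 6.16, 6.14, 6.08 and 6.15 in the knockouts. The wild types spread on both sides of the knockouts (difference 0.09, SE 0.11, limma adjusted p = 0.931). Derl3, the derlin known from secretory cells, differed by 0.02.

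Of the sensors and XBP1, the differences of Xbp1, Atf6 and Eif2ak3 were smaller than their SE, and that of Ern1 was larger than its own. Xbp1 measured 8.42, 8.36, 8.38 and 8.53 in the wild types and 8.44, 8.37, 8.34 and 8.51 in the knockouts, with both groups over the same range (difference -0.01, 95% interval -0.19 to 0.17, limma adjusted p = 0.989). These values cover the whole transcript and do not tell its spliced from its unspliced form. Atf6 measured 7.17 ± 0.07 and 7.17 ± 0.04 (difference -0.0033, 95% interval -0.18 to 0.17), and Eif2ak3, which encodes PERK, 5.04 ± 0.04 and 5.05 ± 0.13 (difference 0.01, 95% interval -0.18 to 0.21; SD, n = 4 each). Ern1, which encodes IRE1, measured 6.10, 6.42, 6.43 and 6.27 in the wild types and 6.14, 6.34, 6.20 and 5.99 in the knockouts. Its groups overlapped, with knockout 4 lowest (difference -0.14, SE 0.11, limma adjusted p = 0.892). Of these 4 genes 3 measured lower, but the signs of Xbp1 and Atf6 turned after quantile (0.03 and 0.03) or cyclic loess normalization (0.02 and 0.02).

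**Figure D4:**
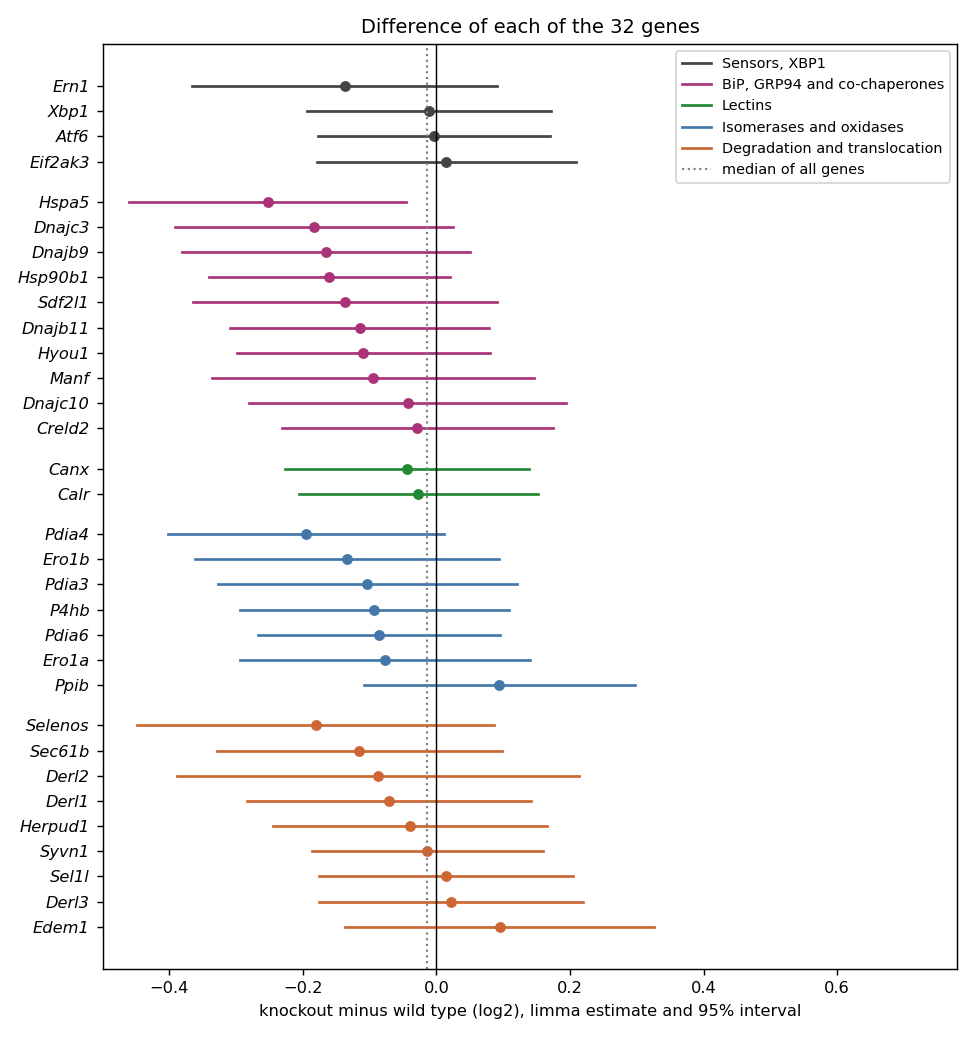
Knockout minus wild type difference (log2, horizontal axis) of each of the 32 genes with its limma 95% interval, grouped by role; the dotted line is the median of all genes (-0.01). The interval of Hspa5 (-0.46 to -0.05) lies below 0 and those of the other genes span it.

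By branch of the response the 3 groups lay close together. The ATF6 branch, mainly chaperones, had 12 of 13 members lower and a median of -0.09. The IRE1 and XBP1 branch, mainly J-proteins and degradation genes, had 11 of 13 lower and a median of -0.10. The PERK branch (Eif2ak3, Herpud1 and Ero1a) had 2 of 3 lower and a median of -0.04. Xbp1 stood in both the ATF6 and the IRE1 group and Herpud1 in both the ATF6 and the PERK group, 5 members were in none, and 0 members of any branch passed the threshold. The ATF6 median was -0.05 without wild type 4, and the PERK median 0.00074 without knockout 3. Differences between branches were not tested. The stress element of paired CCAAT and CCACG boxes also stood in Dnajc3, Syvn1 and Derl3 of the IRE1 group. The medians therefore do not separate the output of ATF6 from that of XBP1.

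Other genes of the pathway were read from lists of their own. Of 16 measured targets of PERK through ATF4 and CHOP, 10 measured lower with a median of -0.05. Among them the stress factor gene Atf3 measured 5.56, 5.68, 6.47 and 6.00 in the wild types and 5.09, 5.54, 5.51 and 5.74 in the knockouts, with overlap and with wild type 3 highest (difference -0.46, SE 0.19, limma adjusted p = 0.861). Vldlr, a lipoprotein receptor gene of the same list, differed by -0.20. Ddit3, which encodes CHOP, had the highest difference of the list, 0.19. Of 13 other stress transcription factors and proteases of the reticulum 5 measured lower (median 0.0087), with Nfya, a subunit of NF-Y, at 0.18 and Creb3l1 (OASIS) at 0.16. Targets of decay by IRE1, which cuts other transcripts too, were lower in 4 of 7 cases (median -0.01), and Bloc1s1, the best known of them, differed by 0.15 and Pdgfrb by -0.24. In each of these lists 0 genes passed the threshold.

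Translocon, signal peptidase and glycosylation genes, which bring new proteins into the reticulum, measured lower in 26 of 30 cases with a median of -0.06. Rpn2, a subunit of the oligosaccharyltransferase, measured 7.11, 7.37, 7.19 and 7.15 in the wild types and 7.10, 7.08, 6.96 and 7.11 in the knockouts, which were narrowly apart (difference -0.14, limma adjusted p = 0.876). Ssr2 of the translocon-associated complex differed by -0.19. Other folding enzymes were lower in 23 of 41 cases (median -0.02), with Stc2, a secreted glycoprotein induced by reticulum stress, at 0.29 and Txndc11 at -0.25. Every knockout lay above every wild type for Stc2 (limma adjusted p = 0.861). Other degradation components were lower in 14 of 26 cases (median -0.04). Ube2j2, a ubiquitin-conjugating enzyme of the reticulum membrane, measured 5.11, 5.17, 5.27 and 5.54 in the wild types and 4.83, 5.03, 4.84 and 4.74 in the knockouts, all below the wild types (difference -0.41, SE 0.11, limma adjusted p = 0.536). Edem3, a mannosidase of the same path, differed by -0.22. Collagen folding and hydroxylation genes were lower in 8 of 13 cases (median -0.04), and P4ha1, the catalytic subunit that pairs with P4hb in prolyl hydroxylase, measured 7.07, 7.19, 7.21 and 7.05 in the wild types and 6.84, 6.86, 6.64 and 6.86 in the knockouts. These groups did not overlap (difference -0.33, SE 0.09, limma adjusted p = 0.538), nor did those of Plod3, a lysyl hydroxylase (difference -0.16). Calcium proteins of the sarcoplasmic reticulum were lower in 12 of 18 cases (median -0.02), with the calcium-binding protein gene Hrc at 0.19 and Tmco1 at -0.18. Atp2a2 had the highest difference of this list, 0.35. For Hrc, as for Stc2, every knockout lay above every wild type (limma adjusted p = 0.869). Of all genes 1.48% were apart in this direction and 2.14% in the other. These 5 lists also had 0 genes past the threshold.

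Averaged over the 32 genes, the arrays measured 6.80, 6.89, 6.83 and 6.89 in wild types 1 to 4 and 6.77, 6.78, 6.77 and 6.78 in knockouts 1 to 4. In the deposited values the knockouts lay close together, all below the lowest wild type. The gap was narrow, with 6.783 in knockout 2 against 6.803 in wild type 1. The medians of all clusters in these arrays, 4.667 and 4.703, lay farther apart than that. Subtracting the medians turns the order of these arrays, so the separation depends on the scaling. Over all genes the array means ran from 5.156 to 5.178 in wild type and from 5.148 to 5.161 in knockout, with overlap. Other lists differed between the same animals. Cytosolic and mitochondrial heat-shock chaperones, which fold proteins outside the reticulum, measured lower in 20 of 22 cases (median -0.13), and their mean ran from 7.90 to 8.04 in wild type and from 7.80 to 7.89 in knockout. Hsp90aa1 differed by -0.36 and Hspa1a by -0.54 (limma adjusted p = 0.434 for both), and 0 of the 22 passed. Whether the reticulum and heat-shock lists differ from each other was not tested.

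**Figure D5:**
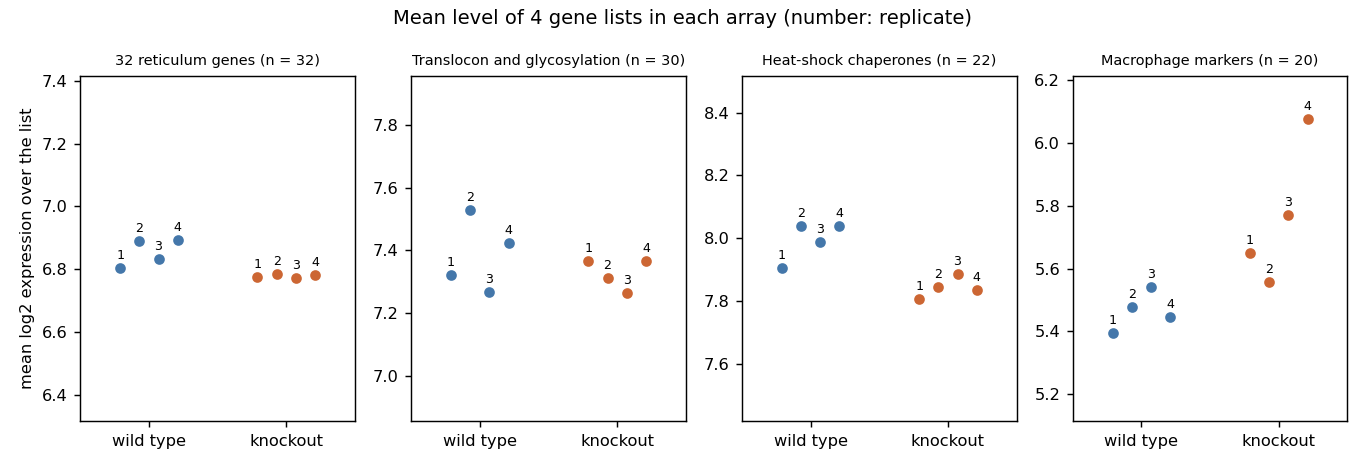
Mean log2 expression in each array (vertical axes; the number beside a point is the replicate) over the 32 reticulum genes, the translocon and glycosylation genes, the heat-shock chaperones and the macrophage markers, in wild type (blue) and knockout (orange). In these deposited values the knockouts lie below the wild types for the reticulum genes and the heat-shock chaperones. The gap for the reticulum genes is narrow (6.783 in knockout 2, 6.803 in wild type 1) and depends on the scaling. The knockouts lie above the wild types for the macrophage markers and overlap with them for the translocon genes.

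Markers of other cells were measured beside these genes. Of 20 macrophage markers 18 measured higher in knockout (median 0.22), with a mean of 5.39 to 5.54 in wild type and 5.56 to 6.08 in knockout, where knockout 4 was highest. Tyrobp, a myeloid signalling adaptor, differed by 0.65 and C1qb, a complement chain, by 0.42, and Gpnmb had the highest difference of the list, 1.29. At an unadjusted limma p under 0.05, 7 of the 20 were higher (2.34% of all genes) and 0 lower. Every knockout lay above every wild type in 4 of them (1.48% of all genes), and 0 of the 20 passed the threshold. Markers of B and plasma cells, which are rich in reticulum, had means of 3.86 to 3.90 in wild type and 3.75 to 3.86 in knockout (5 of 10 lower, median -0.02, and 0.02 without the dimmest 25% of genes). Mzb1 differed by -0.22 and the joining chain gene Jchain by -0.24, while Cd79b of the same list differed by 0.12. Fibroblast markers, from cells that secrete collagen, were lower in 3 of 10 cases, with means of 7.08 to 7.26 in wild type and 7.001 to 7.26 in knockout, and their median difference was 0.05. Pi16 differed by -0.29 and Mfap5 by -0.24, against most of their list, in which Dcn was highest at 0.13. Endothelial markers were lower in 8 of 12 cases (Emcn -0.24, Tek -0.16), adipocyte markers in 3 of 6 (Lep 0.35, Plin1 -0.21), satellite cell markers in 3 of 6 (Myf5 -0.09, Calcr 0.08) and Schwann cell markers in 4 of 5 (Ncmap -0.57, Mbp -0.24). The Schwann cell median of -0.21 was 0.02 without wild type 3 and -0.43 without wild type 2, and Mbp differed by -0.03 and -0.50 in those fits. Tendon markers were lower in 1 of 6 cases (Thbs4 0.21, Scx 0.09) and neutrophil and T cell markers in 4 of 9 (Retnlg -0.20, Cd3g 0.17), and 0 genes of these lists passed the threshold. Retnlg, Cd3g and Jchain were dim, with group means of 2.47 to 2.89 against array medians of 4.61 to 4.72. The part of all these other cells in the reticulum differences was not tested. Without wild type 2 and knockout 4 together, the median difference of the 32 genes was -0.08, 27 measured lower and 0 passed the threshold. Without wild type 4, which held the highest value of 9 of the 32 genes, the median was -0.07, 25 measured lower and 0 passed.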

How the data were processed

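The deposited table holds log2 values of 35556 transcript clusters. The submitters' processing notes name Affymetrix Expression Console and RMA, which subtracts background, sets all arrays to 1 distribution and summarises probes, and can compress the differences of dim genes. Versions and settings: not given in the sources used here. Array medians lay between 4.61 and 4.72. Clusters with 1 symbol (21789) were used, the one with the highest mean per gene, with no filter; 12146 were unnamed here. Dnajc3, Pdia4 and Sec61b had several clusters, and both of Dnajc3 held identical values.

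Groups were tested by moderated linear models (limma 3.58.1, lmFit and eBayes; R 4.3.3; 6 residual and 6.26 prior degrees of freedom), with Benjamini-Hochberg adjustment over all 19938 genes at 0.05. Members, lists and the rule for named genes (all members, and from each other list those past the threshold or the 2 with the smallest p) were chosen with earlier results of these data known. Ddit3, Cd79b, Dcn, Atp2a2 and Gpnmb were added after their values were seen. On simulated data of this comparison with 200 changed genes the steps called 47.7% of those changed by 0.5, 93.3% by 1 and 99.5% by 2. Real differences of the members were smaller. The simulated noise was independent between genes, and the many larger changes loosen the adjusted threshold. In the real data 3 genes passed, and Hspa1a at -0.54 had a limma adjusted p of 0.434. The simulated shares can therefore overstate what could be called here. Labels give separate animals. Promoters came from RefSeq tables (GRCm38.p6), searched in Python 3.11.15. Array number limits precision.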

Additional observations from a re-analysis of the deposited data

Results flagged for a closer look

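In groups of 4 arrays, a value was singled out when its gap to the nearest other array, as a share of the group's range, passed the 95% critical value of Dixon's test. This happened in 9 of 142 groups, 6 of them among the 64 of the 32 reticulum genes. For independent groups chance gives about 1 in 20. The groups here all come from the same 8 arrays, and the share over all genes was not computed. These counts therefore cannot tell whether the reticulum genes hold more such values than other genes. Wild type 2 was the high array for Hyou1 (6.59, the others 6.34 to 6.38), Ero1b (4.58, the others 4.29 to 4.31) and Syvn1 (6.69, the others 6.62 to 6.63). Wild type 3 was high for Canx (9.39, the others 9.31 to 9.32). Knockout 4 was high for the reductase gene Dnajc10 (5.85, the others 5.62 to 5.63) and knockout 1 for Sec61b (6.47, the others 6.11 to 6.17). Outside these genes, P4ha1 was low in knockout 3 (6.64, the others 6.84 to 6.86), Hrc in wild type 4 (8.70, the others 9.01 to 9.05) and the tendon marker Scx in knockout 4 (5.41, the others 5.72 to 5.76).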

How the results depend on the processing

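Over 19 other fits, 0 of the 32 genes passed the threshold in any, nor at an adjusted p under 0.10 (lowest adjusted p 0.604, for Hspa5 without wild type 1), and 21 kept their sign. The median difference ran from -0.11 to -0.06. Between 23 (quantile) and 27 genes measured lower. At an unadjusted p under 0.05 there was 1 gene, with 0 to 2 when 1 array was left out and 2 without wild type 2 and knockout 4 together. Every knockout lay below every wild type in 3 genes, in 1 after median centring, in 3 to 5 when 1 array was left out and in 5 without wild type 2 and knockout 4 together. The ATF6 branch median ran from -0.094 to -0.046 when 1 array was left out. Arrays of the same replicate number deviated from their group means with correlations of 0.094, 0.065, 0.22 and -0.10. Those of different numbers ran from -0.23 to 0.12. These correlations cannot settle whether the numbers pair the animals. With the replicate number as a block the members' median was -0.087, and 0 members or other genes passed, while 3 genes passed without it. Signs turned after quantile normalization for Atf6 (0.028), Xbp1 (0.027), Calr (0.010) and Syvn1 (0.003723), after cyclic loess for Atf6 (0.025), Xbp1 (0.017) and Syvn1 (0.007816), with array weights for Derl2 (0.011), and without wild type 2 and knockout 4 together for Derl2 (0.039), Derl3 (-0.028) and the adipocyte marker Lep (-0.17). The cause was not tested. When 1 array was left out, differences ran from -0.036 to 0.014 for Atf6, -0.033 to 0.067 for Eif2ak3, -0.043 to 0.025 for Xbp1, -0.098 to 0.051 for Dnajc10, -0.089 to 0.029 for Creld2, -0.056 to 0.00196 for Calr, -0.094 to 0.007486 for Herpud1, -0.035 to 0.012 for Syvn1, -0.015 to 0.069 for Sel1l, -0.19 to 0.062 for Derl2 and -0.037 to 0.078 for Derl3, and from -0.82 to 0.011 for the fibre marker Myh2 and -0.024 to 0.14 for the satellite cell marker Calcr.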
